A study of Mus musculus with 96 samples.

Results

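The genes encoding the receptors for the transmitters GABA and glutamate were examined across 4 mouse tissues, 6 times of day and 2 sleep conditions. Members were taken by gene symbol: every feature of the deposited count table whose Ensembl identifier carries, in GENCODE release M21, the symbol of a subunit of the GABA-A, GABA-B, AMPA, kainate, NMDA, delta or metabotropic glutamate receptors. The rule found 47 genes among 54833 features. Of these, 16 encode GABA-A subunits of the alpha, beta, gamma, delta, epsilon, pi and theta classes, 3 encode rho subunits, 2 encode GABA-B subunits, 4 AMPA, 5 kainate, 7 NMDA and 2 delta subunits, and 8 encode metabotropic glutamate receptors.

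GABA-A receptors are chloride channels that carry fast inhibition. They are assembled from several subunit types, and the alpha subunit sets much of a receptor's pharmacology and location. AMPA, kainate and NMDA receptors are cation channels that carry fast excitation, GABA-B and metabotropic glutamate receptors act through G proteins, and delta receptors bridge synapses through cerebellin proteins. Subunit genes differ strongly between neuron types, and granule cells, the most numerous neurons of the cerebellum, have a receptor set of their own.

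The mice were wild-type C57BL/6 males of 6 to 8 weeks, and the tissues were forebrain, cerebellum, kidney and liver. Control mice (CON) were left alone. Sleep-deprived mice (SD) spent 10 h of their resting phase in a slowly turning drum with food and water at hand. Sampling came after the drum, at the next 6 circadian times (CT), which were 4, 8, 12, 16, 20 and 24 h. The study describes the sampling as done under constant darkness. The libraries thus do not show the state during the deprivation. Each tissue, condition and time had 2 libraries of total RNA, which gave 12 libraries for each tissue and condition and 96 in all. The study's reporting summary calls the libraries of a group biological repeats, the labels do not name the animals, and p-values measure the spread between these libraries.

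Values are raw counts per gene, scaled here to CPM (the count divided by the library's total in M counts). Depth ranged from 24.8 to 58.5 M counts per library (28.997 to 47.989 in forebrain, 24.8 to 30.9 in cerebellum, 32.0 to 48.9 in liver and 32.2 to 58.5 in kidney), so a gene at 1 CPM rested on about 24.8 counts in the shallowest library. The tissue labels matched their markers. All 7 forebrain markers were higher in forebrain than in cerebellum, all 7 tested cerebellar markers were higher in cerebellum, all 7 hepatocyte markers were higher in liver than in kidney and all 7 tubule markers were higher in kidney. An eighth cerebellar marker, Neurod1, was listed at 0 in every library. One library stood apart. In replicate 1 of cerebellum CON at CT8, 22.24% of counts over pairs of opposite-strand genes fell on the antisense side, against 4.732 to 5.782% in the other cerebellum libraries, and the results that it moves most are also given without it. In kidney, 20 of 24 libraries carried a title that disagreed with their condition or time tags. Titles decided the group, so every kidney comparison of conditions or times depends on them.

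The subunits were abundant in both brain regions and scarce in the periphery. In CON, the summed level of the 47 genes was 11060 ± 530.2 CPM in forebrain and 11120 ± 349.7 CPM in cerebellum, against 59.73 ± 13.46 CPM in liver and 145.3 ± 13.66 CPM in kidney (mean ± SD, n = 12 libraries each). The 2 brain regions thus had a like total in CPM, in which single genes had different parts. Per kilobase of exon the sums were not alike, at 1292 CPM per kilobase in forebrain and 1714 in cerebellum. A mean of at least 1 CPM was reached by 40 members in forebrain, 41 in cerebellum, 9 in liver and 14 in kidney. The tissue with the highest mean was forebrain for 31 members, cerebellum for 12 and kidney for 3, the last being Gabre, Gabrp and Grin3b. Grm6, the receptor of retinal ON bipolar cells, had its highest mean in liver, where no library held more than 4 counts.

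**Figure D1:**
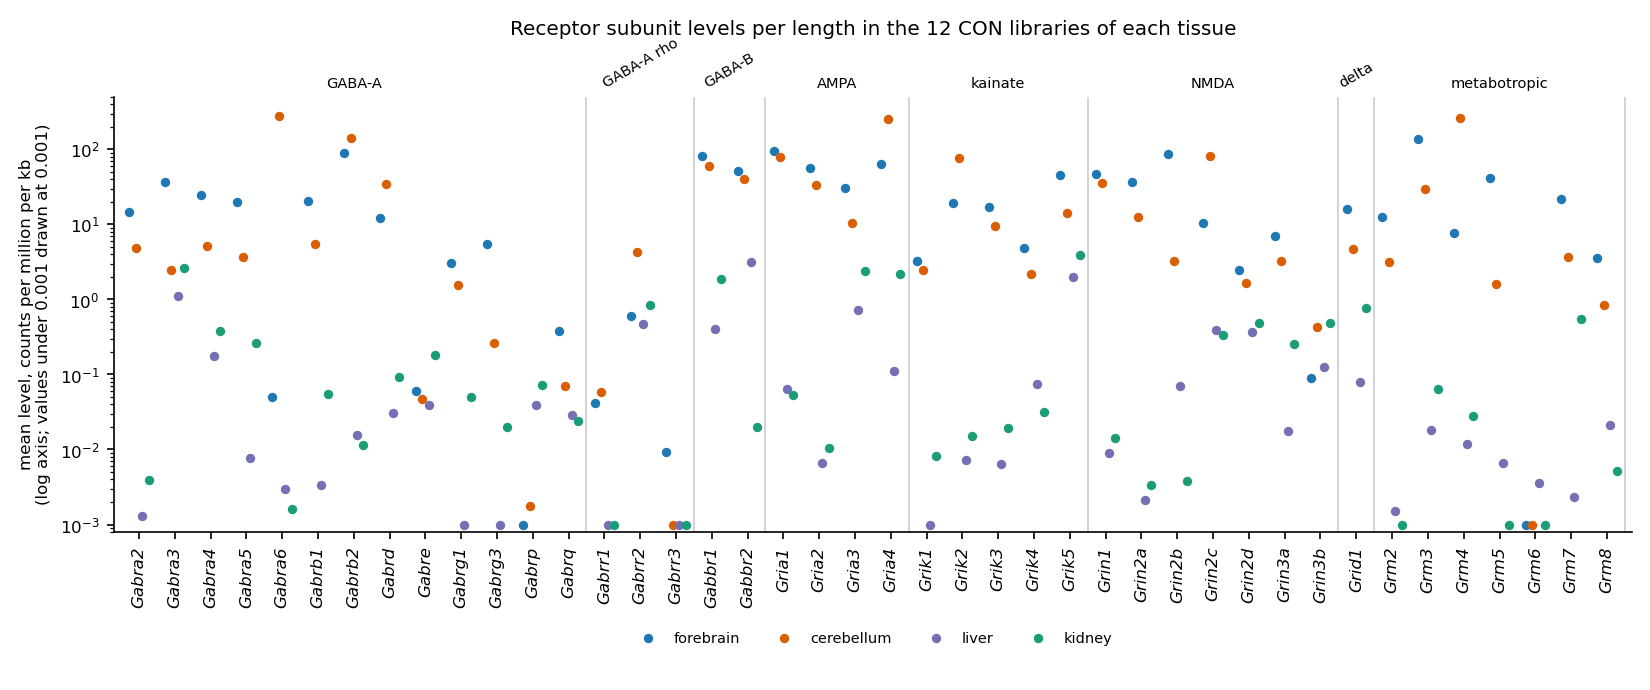
Mean level of receptor subunits in the 12 CON libraries of each tissue, in CPM per kilobase of exon (log axis, values under 0.001 drawn at 0.001), with genes grouped by receptor. Forebrain and cerebellum points lie above liver and kidney points for most genes, and Gabra6, Grm4 and Gria4 of cerebellum are the highest points of the plot.

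Levels of different genes were compared per kilobase of exon. On this scale the 5 highest members of the cerebellum were Gabra6 (280.3), Grm4 (264), Gria4 (253.9), Gabrb2 (143.3) and Grin2c (80.78 CPM per kilobase). In forebrain they were Grm3 (137.7), Gria1 (94.1), Gabrb2 (88.82), Grin2b (86.25) and Gabbr1 (83.01). Only Gabrb2, a beta subunit of GABA-A receptors, was in both lists. The lowest members were shared between the regions. Gabre, Gabrp, Gabrr1, Gabrr3 and Grm6 were under 1 CPM in both, with means of 0.288 and 0.222 CPM for Gabre, the highest of them, in forebrain and cerebellum. Gabrp had no count in any forebrain CON library and Grm6 none in any cerebellum CON library. At this depth such a gene was not detectable, and a count of 0 allows up to 0.06251 to 0.1035 CPM in a forebrain library and 0.09695 to 0.1212 CPM in a cerebellum library (3 counts, counting error only).

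Within most receptor groups the make-up changed between regions. Shares were taken over the summed level per kilobase of the group in each CON library (mean ± SD, n = 12). Among the GABA-A alpha subunits, Gabra3 held 23.9% ± 2.7 in forebrain and 0.69% ± 0.20 in cerebellum. Gabra6, the alpha subunit of granule cells, held 0.0315% ± 0.0681 in forebrain and 77.3% ± 2.9 in cerebellum. Gabrb2 was the leading beta subunit in both, at 52.0% ± 4.0 and 75.0% ± 1.4. Among the gamma and delta subunits Gabrd, found in receptors outside synapses, held 23.9% ± 5.3 in forebrain and 57.3% ± 3.4 in cerebellum. The GABA-B pair kept nearly the same proportion, with Gabbr1 at 61.8% ± 3.6 in forebrain and 59.9% ± 1.2 in cerebellum. Without the library that stood apart, the cerebellar shares given here and in the next paragraph moved by at most 0.81 percentage points, that of Gabrd, to 58.1%.

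The glutamate receptor groups turned over as much. Gria1 led the AMPA subunits of forebrain with 38.4% ± 4.5, and Gria4 those of cerebellum with 67.2% ± 2.3. Grik5, which needs another subunit to form a channel, held 50.99% ± 3.80 of the kainate group in forebrain, and Grik2 held 73.0% ± 2.7 in cerebellum. Of the 4 GluN2 genes, which give NMDA receptors their kinetics, Grin2b held 63.2% ± 2.5 in forebrain and 3.33% ± 0.75 in cerebellum, while Grin2c held 7.77% ± 1.41 and 82.1% ± 2.2. Of the metabotropic receptors, Grm3 held 57.7% ± 8.0 in forebrain and Grm4 held 76.3% ± 1.8 in cerebellum. In bulk tissue, fewer cells of a type and less RNA per cell cannot be told apart.

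**Figure D2:**
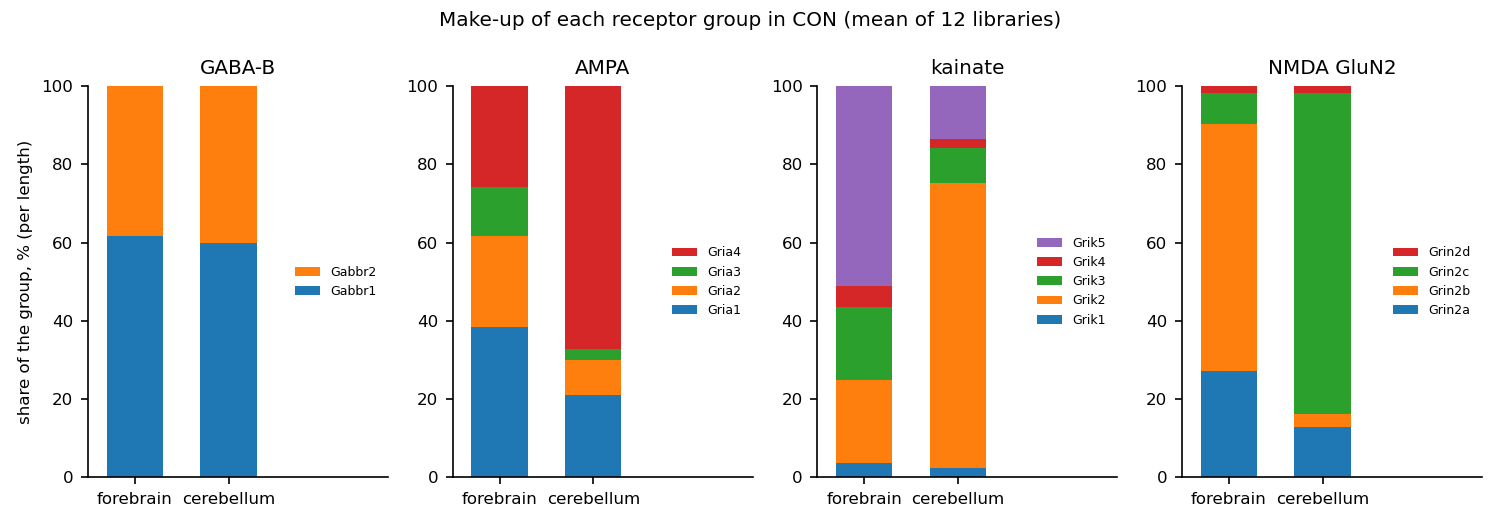
Share of a subunit in the summed level per kilobase of its receptor group, in percent, in 4 of the groups, for the CON libraries of forebrain and cerebellum (bars are means of 12 libraries). The largest part of the cerebellar bar belongs to another gene than that of the forebrain bar in the AMPA, kainate and GluN2 groups, and Gabbr1 is the larger part of both GABA-B bars.

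The regional comparison asked which subunits differ between forebrain and cerebellum. Of the 47 members, 43 passed the filter on low counts and were tested, and Gabrp, Gabrr1, Gabrr3 and Grm6 were not. In CON, 20 were higher in forebrain, where 18.5% of all 23519 genes tested were called in that direction, and 10 were higher in cerebellum, against 17.6% (edgeR quasi-likelihood F-test, adjusted p under 0.05 and over 2-fold). The median log2 fold change, forebrain minus cerebellum, was 0.78 over the 43 members and -0.01 over all genes tested. By group, 8 of 15 tested GABA-A genes were higher in forebrain and 2 in cerebellum, and the counts were 1 and 1 of 4 for AMPA, 2 and 1 of 5 for kainate, 3 and 2 of 7 for NMDA and 5 and 2 of 7 for metabotropic receptors. The rho gene tested, Gabrr2, was higher in cerebellum, and neither GABA-B gene was called.

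The GABA-A genes held the widest contrast. Gabra6 (chr11:42306437-42321072, minus strand of GRCm38) had 551, 716 and 756 CPM as its lowest, median and highest cerebellum CON library. In forebrain the values were 0, 0.0139 and 0.983 CPM, with 6 of 12 libraries at 0 and 9 at 3 counts or fewer. The libraries of the regions stood far apart, and the fitted log2 fold change of -12.42 ± 0.37 (SE) rests on those few forebrain counts. Gabrr2, a rho subunit best known from the retina, had 4.66, 9.41 and 12.9 CPM in cerebellum against 0.645, 1.25 and 2.16 CPM in forebrain (-2.77 ± 0.18). Its libraries did not overlap either.

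Alpha and gamma subunits of forebrain gave the opposite order. Gabra3 had 107, 147 and 175 CPM in forebrain and 6.87, 8.68 and 14.1 CPM in cerebellum, a log2 fold change of 3.96 ± 0.09 or 15.6-fold. Gabrg3 had 37.0, 62.8 and 86.8 CPM against 2.21, 2.60 and 5.03 CPM (4.42 ± 0.16). Gabra4, the usual alpha partner of Gabrd in forebrain, had 149.1 ± 16.45 CPM in forebrain (mean ± SD, n = 12) against 25.7, 30.7 and 42.1 CPM (2.28 ± 0.06). None of these 3 genes had a cerebellum library that reached the lowest forebrain library. Gabra5, an alpha subunit abundant in hippocampus, had 34.6, 55.6 and 87.5 CPM in forebrain and 2.58, 3.36 and 91.3 CPM in cerebellum. Its log2 fold change was 3.65 ± 0.55 over all libraries and 4.17 ± 0.13 without the cerebellum library that stood apart, which alone gave the 91.3 CPM. Gabrq, the theta subunit of hypothalamus and brainstem, was low in both regions, with 0.499, 1.48 and 7.15 CPM against 0, 0.305 and 1.20 CPM, and its libraries overlapped (2.49 ± 0.55, adjusted p = 0.0003488 in edgeR). Among the CON forebrain libraries, the one with 7.146 CPM of Gabrq, replicate 1 at CT8, had the highest summed level of hypothalamic markers, 35.89 CPM against at most 20.32 CPM, of interneuron markers (583.5 against at most 392.3 CPM) and of thalamic markers (993.8 against at most 933.6 CPM), and the lowest of forebrain markers (1899 against at least 2197 CPM). Its striatal markers summed to 1194 CPM, but replicate 1 at CT16 had 1181 CPM with 2.338 CPM of Gabrq. The hypothalamic and thalamic lists were not particular to those areas in these data. In CON their mean sums were 32.39 and 3183 CPM in cerebellum, above the 17.14 and 754.2 CPM of forebrain. Without the CT8 library the log2 fold change of Gabrq was 2.26 ± 0.55 (adjusted p = 0.000918 in edgeR), and the part of dissection in these values was not tested.

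Among NMDA receptor genes, Grin2b (chr6:135713233-136173511, minus strand) had 1847, 2143 and 2373 CPM in forebrain against 66.9, 77.2 and 107 CPM in cerebellum. The fold was 27.9, with a log2 fold change of 4.80 ± 0.09 and an adjusted p of 1.144e-20 in edgeR. Grin2c (chr11:115249169-115267243, minus strand), its GluN2 relative of mature granule cells, had 44.8, 51.7 and 66.9 CPM in forebrain and 322, 407 and 495 CPM in cerebellum (-2.89 ± 0.06, 7.41-fold). Every forebrain library was below every cerebellum library. Grin3b, a glycine-binding subunit, was also higher in cerebellum (0.242, 1.43 and 1.85 CPM against 0.138, 0.314 and 0.513 CPM, -2.17 ± 0.26). Its regions overlapped only through the value of 0.242, which came from the library that stood apart. Grin1, the subunit that every NMDA receptor contains, differed by only 0.48 ± 0.06 and was not called.

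The metabotropic and kainate receptors held contrasts in both directions. Grm4 (chr17:27422387-27521403, minus strand), a presynaptic receptor of granule cell axons, had 1315, 1577 and 1816 CPM in cerebellum and 33.2, 40.6 and 73.1 CPM in forebrain, or 34.1-fold more in cerebellum (log2 fold change -5.09 ± 0.10). Grm5, a receptor that acts through phospholipase C, went the other way, with 351, 445 and 575 CPM in forebrain and 7.17, 12.7 and 34.0 CPM in cerebellum (4.81 ± 0.19, 28.1-fold). Grm7 had 97.8, 133 and 157 CPM in forebrain and 16.9, 21.7 and 27.9 CPM in cerebellum (2.62 ± 0.08). The kainate subunit Grik2 had 856, 1037 and 1185 CPM in cerebellum and 168, 234 and 380 CPM in forebrain (-1.98 ± 0.09). In these 4 genes the regions did not overlap.

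The other called members were Grm3 (log2 fold change 2.25), Grm8 (2.16), Grm2 (2.06), Gabrb1 (1.94), Grid1 (1.81), Grik5 (1.74), Gabra2 (1.63), Grin2a (1.62), Gria3 (1.59), Grik4 (1.20), Grin3a (1.10) and Gabrg1 (1.03), all higher in forebrain, and Gria4 (-1.97) and Gabrd (-1.49), higher in cerebellum. The 13 tested members that were not called lay between -0.64 for Gabrb2 and 0.90 for Grik3. They included Gria2 (0.78 ± 0.05), the AMPA subunit that limits calcium entry, and Grin1. Without the library that stood apart, Grik3 reached 1.10 ± 0.08 with an adjusted p of 5.82e-11 in edgeR and was called, which made 31 calls, and Gabra2 moved to 1.80.

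**Figure D3:**
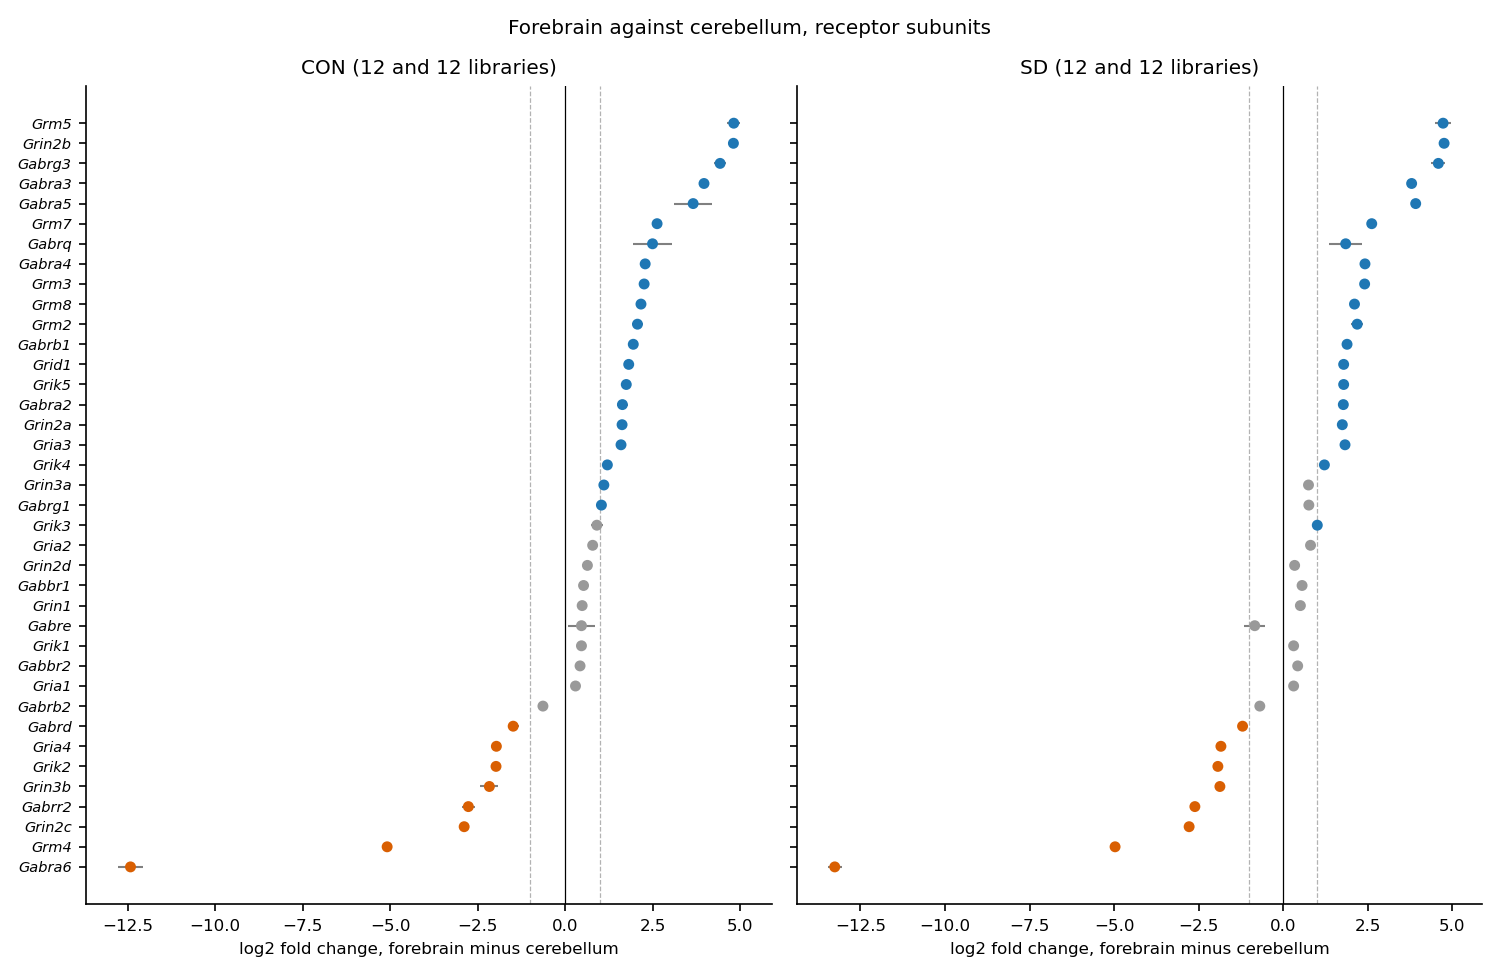
Log2 fold change between forebrain and cerebellum (positive, higher in forebrain) with its SE for subunits tested, in CON and in SD libraries (12 of each region). Blue points were called higher in forebrain and orange points higher in cerebellum, grey points were not called, and dashed lines mark 2-fold, with Gabra6 at -12.42 and Grm5 at 4.81 at the ends of the CON panel.

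The SD libraries, which are separate from the CON libraries, gave the same direction for 42 of the 43 members tested. The exception was Gabre, under 1 CPM in both regions, with a log2 fold change of 0.46 in CON and -0.84 in SD. In SD 19 members were higher in forebrain, against 19.1% of all 23284 genes tested, and 10 were higher in cerebellum, against 15.5% (edgeR). The calls of 28 members were shared by both conditions and had the same direction in all 28. Gabrg1 and Grin3a were called in CON alone and Grik3 in SD alone, and the test of the difference itself, given with the SD response, called none of the 3. Taking each pair of group means at one time and condition, 38 of the 42 members that reached 1 CPM in either region had the same direction at all 12, and Gabra5, Gria1, Grik1 and Grik3 did not. The counts of shared directions and shared calls were not made over all genes. They therefore do not show whether the members were more stable than other genes.

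Promoter sequences were available in a RefSeq table (GRCm38.p6) for 32 of the 47 members, with 39 start sites. Each window held 250 bases before and 50 after the start. Median GC content was 59.7% over the members' windows and 52.7% over all 32851 windows, and the median number of CpG dinucleotides was 12 against 7. Motifs were searched on both strands. The E-box CACGTG, bound by clock factors, was in 1 of 39 windows (7.15% of all windows), the core of the cAMP response element TGACG in 5 (20.81%), the core of the NFI site TTGGC in 18 (46.71%) and the TATA box TATAAA in 4 (13.62%). A match is a run of letters and not evidence of binding. Below are the 250 bases before the start for a pair of genes higher in cerebellum (Gabra6, chr11:42321073-42321322, and Grin2c, chr11:115267244-115267493) and a pair higher in forebrain (Grm3, chr5:9725353-9725602, and Gabrg3, chr7:57387216-57387465), all on the minus strand and written 5′ to 3′. They were chosen after the values were seen, as examples of each direction. Capitals mark the NFI core TTGGC or its complement GCCAA. The window of Gabra6 had a GC content of 42.0% and 2 CpG, that of Grin2c 70.0% and 22 CpG, that of Grm3 63.7% and 11 CpG and that of Gabrg3 61.0% and 13 CpG. GC content ran from 38.3 to 72.0% over the 19 windows of 14 genes called higher in forebrain and from 42.0 to 70.0% over the 6 windows of 6 genes called higher in cerebellum.
Gabra6: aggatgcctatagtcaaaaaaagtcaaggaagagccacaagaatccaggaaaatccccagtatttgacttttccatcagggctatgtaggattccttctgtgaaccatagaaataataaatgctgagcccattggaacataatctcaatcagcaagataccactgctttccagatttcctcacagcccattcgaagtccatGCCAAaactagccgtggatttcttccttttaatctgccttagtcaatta
Grin2c: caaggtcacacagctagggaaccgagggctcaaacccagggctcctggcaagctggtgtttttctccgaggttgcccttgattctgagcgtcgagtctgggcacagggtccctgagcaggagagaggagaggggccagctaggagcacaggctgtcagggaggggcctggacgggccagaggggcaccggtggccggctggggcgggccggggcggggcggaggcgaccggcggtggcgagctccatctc
Grm3: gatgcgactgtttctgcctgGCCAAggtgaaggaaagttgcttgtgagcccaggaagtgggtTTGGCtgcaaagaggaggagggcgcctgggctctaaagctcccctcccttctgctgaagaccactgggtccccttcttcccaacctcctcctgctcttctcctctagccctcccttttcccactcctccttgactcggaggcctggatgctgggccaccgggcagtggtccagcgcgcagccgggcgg
Gabrg3: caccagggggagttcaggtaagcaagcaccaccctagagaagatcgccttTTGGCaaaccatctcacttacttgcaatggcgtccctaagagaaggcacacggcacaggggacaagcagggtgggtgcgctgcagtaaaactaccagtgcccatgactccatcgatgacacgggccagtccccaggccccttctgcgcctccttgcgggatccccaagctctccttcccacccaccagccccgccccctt

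The member genes are long. Their median span was 138.3 kb against 17.6 kb for protein-coding genes, and 26 of 47 (55.3%) spanned over 100 kb, against 11.4% of protein-coding genes.

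Genes around the receptors differed between regions too. Of 15 tested enzymes and transporters of glutamate, 8 were higher in forebrain and 2 in cerebellum, with a median log2 fold change of 1.26, where 18.5% and 17.6% of all genes were called in these directions. The astrocyte transporter Slc1a2 had 2.18, the vesicular transporter Slc17a8 2.31 and the Purkinje cell transporter Slc1a6 -3.72. Of 35 tested scaffolds and auxiliary proteins of glutamate receptors, 19 were higher in forebrain and 7 in cerebellum (median 1.32), among them the kainate auxiliary protein Neto1 (5.55) and the synaptic organizer Cbln1 (-5.82). Of 15 tested scaffolds and auxiliary proteins of GABA receptors, 5 were higher in forebrain and 2 in cerebellum (median 0.67), including the GABA-B partners Kctd16 (4.65) and Kctd8 (-3.68), and of 8 tested enzymes and transporters of GABA (median 0.01) Slc6a11 (1.63) and Slc6a12 (-1.04) were called. The difference between the lists was not tested. Markers of other cells also differed between the regions, and their part in the receptor values was not tested. All 4 microglial markers were higher in forebrain (median 2.15), 4 of 6 interneuron markers were higher in forebrain and 1 in cerebellum (median 4.40), and 2 of 6 general neuronal markers were higher in forebrain and 1 in cerebellum (median 0.34). The summed level of the interneuron markers was nonetheless 326.9 ± 91.63 CPM in forebrain and 353.9 ± 27.88 CPM in cerebellum CON libraries (mean ± SD).

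Within a region, members differed in how much they varied. Over the members at 1 CPM or more, the median coefficient of variation among 12 CON libraries was 15.62% in forebrain and 11.61% in cerebellum. The coefficient was under 20% for 25 of 40 members in forebrain and 31 of 41 in cerebellum. The most variable members were Gabrq (88.19%), Gabrr2 (32.86%), Grm2 (32.61%) and Gabrd (31.78%) in forebrain. In cerebellum they were Gabra5 (233.4%), Grm5 (48.85%), Gabra2 (43%) and Grik3 (41.52%). The high values of Gabra5, Gabra2 and Grik3 in cerebellum were those of the library that stood apart, with 91.28, 88.29 and 196.2 CPM against at most 5.309, 38.58 and 87.87 CPM in the 11 other CON libraries. Without it the coefficients were 23.48% for Gabra5, 8.748% for Gabra2 and 10.67% for Grik3, the median over members was 8.75%, and the most variable were Grm5 (51.73%), Gabrr2 (33.89%) and Gabrg3 (27.75%). Of 41 members at 1 CPM or more there, this library was above all others for 9 and below all others for 20. The same count was not made over all genes, so it describes the library and is not a result about the members. In forebrain, Gabrq had 49.94% without replicate 1 at CT8. The forebrain CON libraries also differed in their summed striatal markers (116.3 to 1194 CPM) and oligodendrocyte markers (765.7 to 4587 CPM). Their part in the spread of the members was not tested.

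No receptor gene of the brain was called between SD and CON over the day. Averaged over the 6 times, 0 of 42 tested members were called in forebrain, where 0.0303% of all genes were called (edgeR, adjusted p under 0.05). At an unadjusted p under 0.05 there were 5, or 11.9% against 6.409% of all genes, and DESeq2 called 0. In cerebellum 0 of 43 were called, against 0% of all genes, with 0 at an unadjusted p under 0.05 and 0 by DESeq2. The summed level of the members was 11050 CPM in forebrain SD and 11120 CPM in cerebellum SD libraries, beside 11060 and 11120 CPM in CON. The median log2 fold change, SD minus CON, was -0.01 in forebrain and -0.0050 in cerebellum.

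The intervals were taken for each member on its own and for the change averaged over the times of day. They do not bound a change at a single time. In forebrain the log2 fold change of Gabra3, for example, was -0.11 ± 0.08 (SE) averaged over the times and -0.52 ± 0.15 at CT20. Of the 40 forebrain members at 1 CPM or more, 37 had an estimate within 0.25 of 0 on the log2 scale and 36 had a 95% interval that lay within 0.5 of 0. The estimates ran from -0.89 for Gabrq to 0.33 for Gabrr2. Without replicate 1 of CON at CT8, the library with the highest Gabrq, that of Gabrq was -0.63 ± 0.31 (adjusted p = 0.7875 in edgeR). In cerebellum the same held for 40 and 37 of 41 members, from -0.35 for Gabra5 to 0.18 for Gabrg1. The value of Gabra5 rested on the library that stood apart and was 0.18 ± 0.14 without it, when 41 and 40 of the 41 members met these limits and the estimates ran from -0.15 for Grm2 to 0.19 for Gabrr2. The smallest p-values in forebrain were those of Grin2d (-0.21 ± 0.07, adjusted p = 0.712), Gabrq (-0.89 ± 0.33, adjusted p = 0.762) and Grid1 (-0.13 ± 0.05, adjusted p = 0.772), and in cerebellum those of Grm3 (-0.08), Gabre (0.81) and Gabrg1 (0.18), each with an adjusted p of 0.907 (edgeR). Without the library that stood apart the smallest in cerebellum was that of Grm2 (-0.15 ± 0.07, adjusted p = 0.9968 in edgeR). A p over the threshold does not show that the conditions were alike. The difference of the SD response between the regions was called for 0 of 43 members, against 0% of all 24219 genes, with 5 (11.63%, against 4.769% of all genes) at an unadjusted p under 0.05 and 0 by DESeq2. The smallest p-values were those of Grin2d (-0.31), Gabre (-1.30) and Gria3 (0.22), all with an adjusted p of 0.860 in edgeR.

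**Figure D4:**
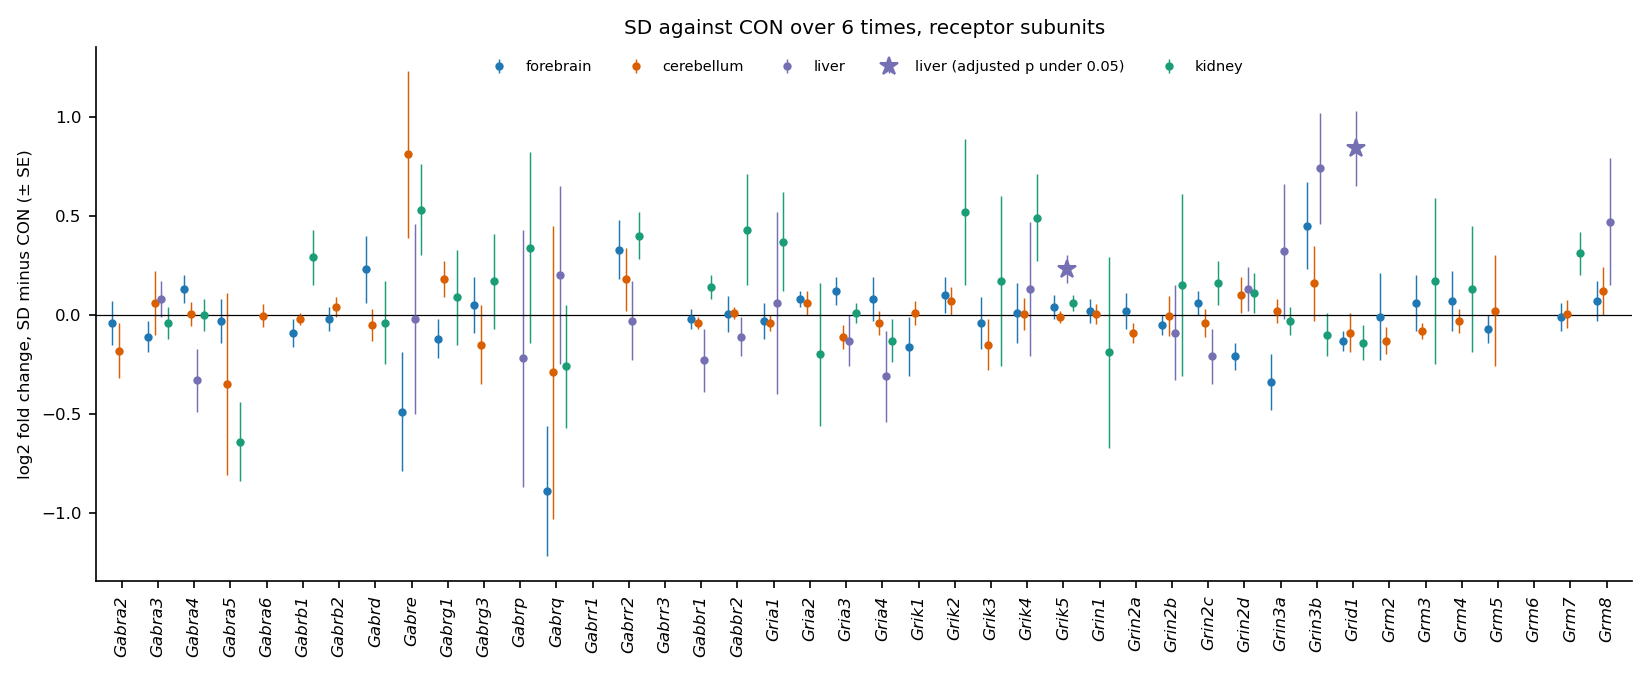
Log2 fold change of SD against CON over the 6 times with its SE, for subunits tested in forebrain, cerebellum, liver and kidney (12 SD and 12 CON libraries each). Brain points lie close to 0 with short bars for most genes, and stars mark the calls in liver, Grid1 at 0.84 and Grik5 at 0.23.

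Single times compared 2 with 2 libraries, with the spread estimated over all 24 libraries of the tissue. In cerebellum at CT8, 2 of 43 members were called, against 10.3% of all genes, both lower in SD. Gabra5 had 91.28 and 3.860 CPM in CON and 3.488 and 4.621 CPM in SD (log2 fold change -3.68, adjusted p = 0.0305 in edgeR). Gabra2 had 88.29 and 33.05 CPM in CON and 33.61 and 30.74 CPM in SD (-1.01, adjusted p = 0.04765). In both genes 1 of the 2 CON libraries, the library that stood apart, was high and the other lay among or close to the SD libraries. Without that library the log2 fold changes were 0.08 and -0.03 (adjusted p = 0.998 in edgeR), no member was called and no gene of the table was called. With the other CON library of CT8 left out instead, 16 of 44 tested members were called, or 36.36%, against 53.1% of all genes. At the other 5 times in cerebellum 0 members were called by edgeR, with 0 to 8 at an unadjusted p under 0.05. The 8 were at CT4, or 18.6% of members against 7.228% of all genes, and numbered 14 (32.56%, against 12.84%) without the library that stood apart, again with 0 called.

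In forebrain 0 of 42 members were called at each of the 6 times (edgeR). The share of all genes called was 0.00433% at CT16 and 2.28% at CT20, and the members with an unadjusted p under 0.05 numbered 2 at CT16 (4.762%, against 10.49% of all genes) and 10 at CT20 (23.81%, against 21.55%). The smallest p-value at CT20 was that of Grin3a, an NMDA subunit that lowers calcium entry. It had 94.25 and 98.01 CPM in CON and 49.30 and 39.62 CPM in SD, so the libraries did not overlap, with a log2 fold change of -1.12 ± 0.31 and an adjusted p of 0.0614 in edgeR. Gabra3 (-0.52 ± 0.15, adjusted p = 0.0758) and Gabrb1 (-0.39 ± 0.12, adjusted p = 0.0878) followed. DESeq2 called 3 members at CT20, and its share over all genes is not given here. Over all times the forebrain Grin3a libraries ranged from 54.13 to 126.0 CPM in CON and from 39.62 to 95.91 CPM in SD. The groups also did not overlap at CT8, and they overlapped at the other 4 times. In the CT20 libraries the summed thalamic markers were 590 and 498.3 CPM in CON and 882.5 and 764.3 CPM in SD, the hypothalamic markers 15.66 and 10.49 against 22.88 and 17.58 CPM and the forebrain markers 2747 and 3089 against 2723 and 2420 CPM. None of these 3 sums overlapped between the conditions. Nor did the olfactory bulb sums, at 16.63 and 21.58 CPM in CON and 8.555 and 10.98 CPM in SD. The striatal and interneuron sums overlapped. In CON the thalamic and hypothalamic lists summed higher in cerebellum than in forebrain, so they were not particular to those areas. The part of any of these sums in the Grin3a values was not tested.

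**Figure D5:**
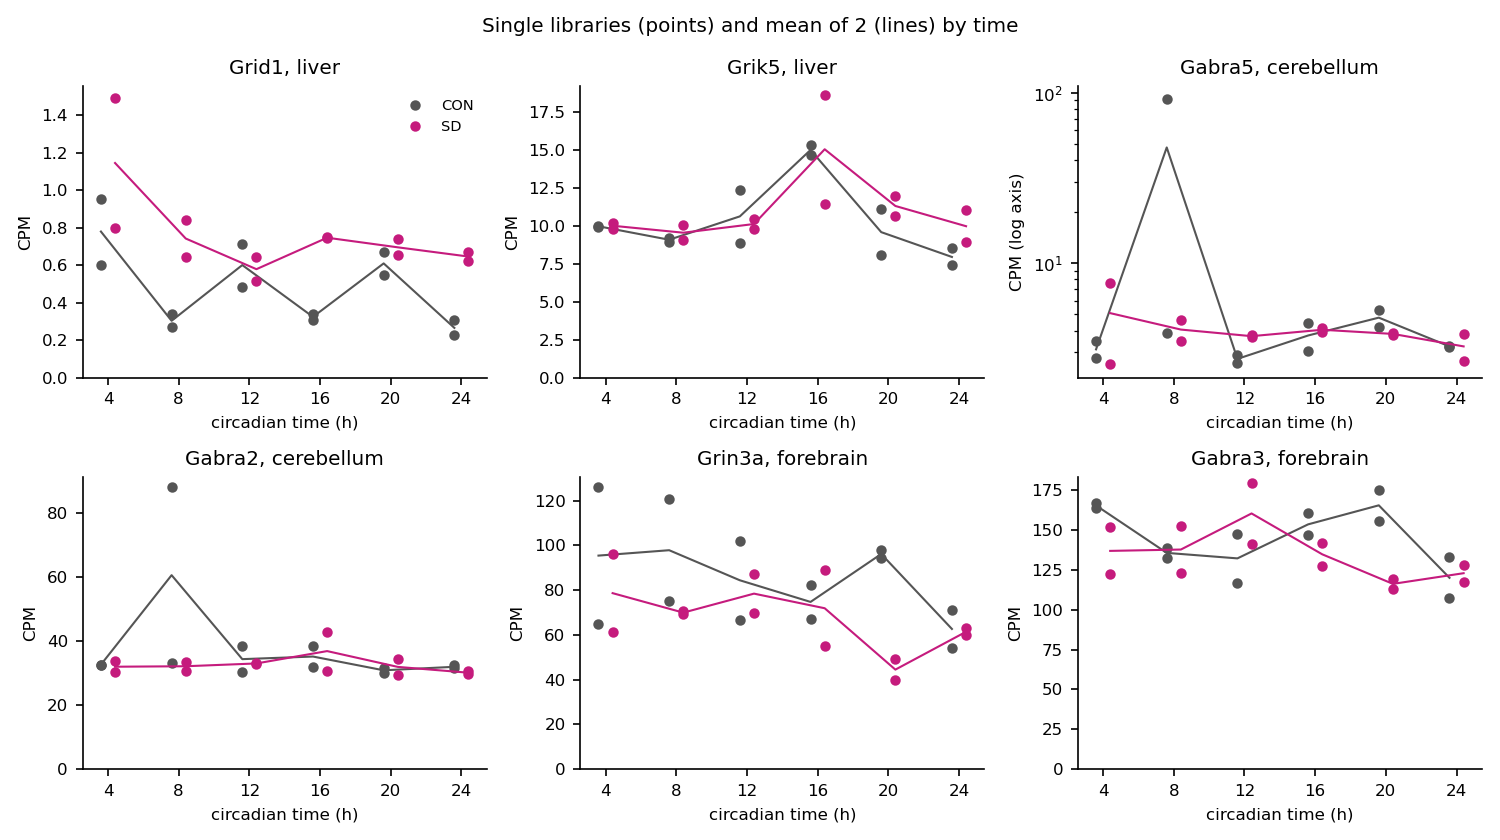
Level in CPM of 6 tissue and gene pairs by circadian time in h, with single libraries as points and means of 2 as lines, for CON (grey) and SD (magenta), and a log axis for Gabra5 alone. The single high CON point at CT8 in the 2 cerebellum panels is the library that stood apart, and the Grin3a panel has its widest gap at CT20.

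Time of day was tested within each tissue and condition by the JTK procedure, which ranks the libraries against cosines of a 24 h period. No member was called rhythmic in the brain at an adjusted p under 0.05, nor was any other gene, with 0% called in forebrain CON, forebrain SD, cerebellum CON and cerebellum SD. At an unadjusted p under 0.05 there were 2 of 42 members in forebrain CON (4.762%, against 12.31% of all genes), 1 in forebrain SD (2.381%, against 7.509%), 7 of 43 in cerebellum CON (16.28%, against 7.017%) and 3 in cerebellum SD (6.977%, against 8.979%). A cosine fit in edgeR also called 0 members in each. The members with the smallest JTK p-values in forebrain were Grik3, Grm7 and Gria2 in CON (exact p = 0.02655, 0.04323 and 0.06782) and Gabrg1, Grik4 and Grin2b in SD (exact p = 0.004502, 0.06782 and 0.06782). In cerebellum they were Grik4, Gria1 and Grm4 in CON (exact p = 0.008658, 0.01553 and 0.02655) and Gria1, Grin1 and Grin2c in SD (exact p = 0.004502, 0.04323 and 0.04323). Gria1 was the only gene in both cerebellum lists, with its peak at CT16 in each, and its adjusted p was 0.5407 in CON and 0.351 in SD. Whether the 24 h pattern differed between SD and CON was tested in 1 fit for each region, which called 0 members by edgeR, with 2 of 42 at an unadjusted p under 0.05 in forebrain (4.762%, against 6.023% of all genes) and 10 of 43 in cerebellum (23.26%, against 10.12%). The smallest adjusted p was 0.820 in forebrain (Grik5 and Grm7, among others) and 0.463 in cerebellum (Grik4 and Gabra3). DESeq2 called 0 in both.

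Liver and kidney each expressed a few subunits at a low level. In liver CON libraries Gabbr2, a GABA-B subunit, was the highest member at 21.3 ± 6.4 CPM, from 13.1 to 31.2 CPM. The others were Grik5 (10.4 ± 2.5), Gria3 (7.13 ± 2.55), Gabra3 (4.33 ± 0.52), Gabbr1 (3.18 ± 1.48), Grin2d (2.43 ± 0.43), Grin2c (1.95 ± 0.57), Grin2b (1.73 ± 1.44) and Gabra4 (1.07 ± 0.38 CPM). In kidney the members included Gria3 (23.6 ± 3.0), Grik5 (20.02 ± 2.01), Gabbr1 (14.6 ± 1.5), Gria4 (13.9 ± 2.9) and Gabra3 (10.2 ± 2.0 CPM). The kidney members between 1 and 5 CPM were Grid1 (4.52), Grin2d (3.21), Grm7 (3.19), Grin3a (3.16), Gabra4 (2.31), Gabrr2 (1.76), Grin2c (1.69) and Grin3b (1.58). The obligate NMDA subunit Grin1 was under 1 CPM in both organs. Replicate 2 of liver CON at CT16 held 188 counts of Grin2b, against 15 to 95 in the other liver CON libraries. It also held 29 counts of Gria2, 26 of Grin1 and 31 of Gabrb2, against at most 5, 4 and 2 in the others. The source of these counts was not tested. The summed level of 6 general neuronal markers was 15.15 CPM in liver and 3.161 CPM in kidney CON libraries, and the part of nerve fibres in the receptor values was not tested.

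Liver and kidney differed in most of the members tested. Of 33 tested, 4 were higher in liver, against 17.9% of all 22057 genes, and 14 were higher in kidney, against 24.2% (edgeR, adjusted p under 0.05 and over 2-fold). The median log2 fold change, liver minus kidney, was -0.87 over the members and -0.04 over all genes. Gabbr2 had the largest difference toward liver (7.81 ± 0.17, 224-fold), as no kidney CON library passed 0.211 CPM. Its partner Gabbr1 was higher in kidney (-1.77), so the GABA-B pair was unequal in opposite directions. Grin2b (4.53), Grm8 (2.35) and Grik4 (1.63) were also higher in liver, and the highest liver count of Grin2b was that of replicate 2 at CT16. Toward kidney, Gria4 had -3.89, Gabrb1 -3.63, Grin3a -3.44 and Grid1 -2.73. Grm7 had at most 3 counts in any liver CON library and at least 2.48 CPM in kidney, and Gabrg1 had no liver count and 4 to 35 counts in kidney libraries. Gabrg3, Gabra5, Gabre, Grin3b, Gria3 and Gabrd were also higher in kidney. Of the neighbouring lists, 12 of 27 tested glutamate receptor scaffolds and auxiliary proteins were higher in kidney and 5 in liver, and 5 of 12 glutamate enzymes and transporters were higher in liver and 3 in kidney, among them the glutaminase Gls2 (8.69) and the transporter Slc1a1 (-10.90).

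Under sleep deprivation 2 of 21 tested members were called in liver, or 9.52% of them, against 18.2% of all genes (edgeR, adjusted p under 0.05). Both were higher in SD. Grid1 (chr14:34820108-35583379, plus strand), a delta receptor gene, had 0.225, 0.413 and 0.955 CPM as its lowest, median and highest CON library and 0.515, 0.705 and 1.49 CPM in SD. The groups overlapped, and the log2 fold change was 0.84 ± 0.19 with an adjusted p of 0.002628 in edgeR, at a level of about 1 CPM or less. Grik5 (chr7:25009849-25072346, minus strand) had 7.40, 9.60 and 15.4 CPM in CON and 8.94, 10.3 and 18.7 CPM in SD, with wide overlap, and its log2 fold change was 0.23 ± 0.07 (adjusted p = 0.02528). It was not called when libraries were scaled by their total alone (0.10, adjusted p = 0.4261). Of the neighbouring lists in liver, 3 of 4 tested GABA enzymes and transporters rose and 1 fell, 2 of 11 glutamate enzymes and transporters rose and 4 fell, and the scaffold lists had 1 up and 1 down of 11 and 1 up and 2 down of 20. Among the genes that fell were the cystine and glutamate exchanger Slc7a11 (-1.42), the glutamate transporter Slc1a3 (-0.92) and Neto2 (-0.60). These 4 lists held no called gene in forebrain, cerebellum or kidney. Cell markers moved in liver as well, where 5 of 7 hepatocyte markers rose (median 0.26) and 2 of 4 microglial markers fell (median -0.36), and their part in the receptor values was not tested.

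In kidney 0 of 32 tested members were called by edgeR, against 2.3% of all genes, with 7 at an unadjusted p under 0.05 (21.88%, against 13.06% of all genes). DESeq2 called 1, and its share over all genes is not given here. The smallest p-values were those of Gabrr2 (0.40 ± 0.12, adjusted p = 0.1057), Gabra5 (-0.64 ± 0.20, adjusted p = 0.1078) and Grm7 (0.31 ± 0.11, adjusted p = 0.1889 in edgeR). No member was called rhythmic in either organ. The share of all genes called by JTK was 0.984% in liver CON, 5.24% in liver SD, 0.246% in kidney CON and 0.251% in kidney SD. At an unadjusted p under 0.05 there were 2 and 3 of 21 members in liver CON and SD (9.524 and 14.29%, against 22.71 and 26.17% of all genes) and 5 and 3 of 32 in kidney (15.62 and 9.375%, against 13.36 and 13.93%), and the cosine fit in edgeR called 0. The smallest p-values belonged to Gabra4, Grin3a and Grin2b in liver CON, to Grik4, Gria3 and Grin3b in liver SD, to Grid1, Gabrd and Grm4 in kidney CON and to Gabrq and Grid1, among others, in kidney SD. The lowest adjusted p among them was 0.08762, for Gabrq in kidney SD (JTK). In liver CON, replicate 2 at CT16 held 26 counts of Grin3a and 188 of Grin2b, against at most 11 and 95 in the other libraries. Grid1 was in both kidney lists, with its JTK peak at CT12 in each. Its means in CON were 4.728, 5.488, 5.538, 4.386, 4.182 and 2.789 CPM from CT4 to CT24, and in SD they were 4.199, 3.951, 4.889, 4.377, 4.105 and 3.053 CPM, so that both series were lowest at CT24.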

How the data were processed

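Total RNA was sequenced in 96 strand-specific libraries. Per the study's methods, the authors trimmed reads with Trim Galore, aligned them to GRCm38 with HISAT2, used Samtools to keep pairs whose mapping quality was 60 and deposited raw counts per gene from featureCounts with strand. The quality filter drops reads that map to several places. The series table held the same counts as the library files in 96 of 96 columns. Symbols, spans and exon lengths came from GENCODE M21, where 49326 of 49585 Ensembl identifiers had a symbol, and the 5248 numbered loci were kept in library totals and tests. Groups came from sample titles.

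The members and gene lists were chosen with earlier results of these data known. Members given with full values were, between brain regions, the 8 with the largest positive and the 8 with the largest negative log2 fold change among those called in CON and those under 1 CPM in both, every member called for SD or otherwise the 3 with the smallest p, the 3 with the smallest JTK p in each tissue and condition, and those at 1 CPM or more in liver and kidney. Some genes that this rule names are not reported here. Counts were tested on the whole table by edgeR 4.0.16 (quasi-likelihood F-test, R 4.3.3), with TMM factors, filterByExpr, time as an additive factor (a mean for each group for single times) and Benjamini-Hochberg adjustment, at an adjusted p under 0.05 and, between tissues, over 2-fold. Dividing a log2 fold change by the root of its F value gave the SE. The JTK procedure was written in Python 3.11.15 (numpy 2.4.6, pandas 2.3.3, scipy 1.17.1) with 6 phases, an exact null for tied reference ranks and p multiplied by 6. Levels per kilobase divided CPM by the union of exons. Both tests were tested on simulated data. Alternatives were DESeq2 1.42.0, its size factors, library sizes alone, no filter, the replicate block, a per-library covariate for long genes relative to short ones, TMM-scaled CPM, a cosine fit in edgeR, 0.5 CPM as the level and leaving out each library. Figures used matplotlib 3.10.9.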

Additional observations from a re-analysis of the deposited data

How the results depend on the processing

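The regional calls were stable under DESeq2, DESeq2 size factors, library sizes alone, no filter on low counts and the replicate block, with 29 to 31 members called in CON (30 in the fit as described) and 28 to 30 in SD (29), and leaving out each library in turn gave 30 to 31 and 28 to 29. Liver against kidney gave 18 to 23 over the alternatives and 18 to 23 with single libraries left out, and members at 1 CPM or more numbered 9 in liver and 14 in kidney, 11 and 14 with TMM-scaled CPM, 12 and 17 at 0.5 CPM and, in liver, 9 to 10 with single libraries left out. Counts of SD calls were small and moved. Without a filter on low counts there were 1 at CT20 and 2 at CT4 in cerebellum, 4 at CT20 in forebrain and 4 in kidney, where 0 were called with it. DESeq2 called 3 at CT20 in forebrain and 1 in kidney, each against 0 with edgeR. With library sizes alone there was 1 call in liver and 1 in cerebellum at CT8, each against 2. The shares of all genes called in these alternative fits are not given. Their counts thus do not show whether members were called more often than other genes. Leaving out single libraries gave 0 to 16 calls in cerebellum at CT8, 0 to 1 in forebrain at CT20 (1 without replicate 1 or 2 of CON CT4), 0 to 1 in kidney (1 without replicate 2 of SD CT20 or replicate 1 of SD CT4) and 1 to 3 in liver. The Gabra5 difference in cerebellum at CT8 turned from -3.68 to 0.08 without the library that stood apart and was -4.60 without the other CON library of that time. Its difference over all times turned from -0.35 to 0.18 without the first, and that of Gabrq in forebrain moved from -0.89 to -0.63 without replicate 1 of CON CT8. In liver, Grik5 lost its call in 5 of 24 such fits (adjusted p up to 0.0555 in edgeR), those without replicate 2 of CON CT12, CON CT20, CON CT24 or SD CT20 or replicate 1 of SD CT24, and without the filter, while Grid1 kept its call in all of them. No setting gave a rhythmic member or a called difference of the SD response between the brain regions. The cause of these changes was not tested. In cerebellum, the values of Gabra5, Gabra2 and Grik3 depended on 1 library, and why that library stood apart was not tested either.

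With the replicate number as a block, 2 members were called at CT20 in forebrain and 0 at CT8 in cerebellum, while the regional counts were 30 and 28, liver had 2 calls, kidney 0 and liver against kidney 19. The numbers were not taken as pairing the samples. Deviations of same-numbered SD and CON libraries correlated over 0.1 in 3 of 6 pairs in forebrain, cerebellum and liver and 4 of 6 in kidney. SD and CON mice differ, so these values cannot show whether same-numbered tissues came from the same animal. Between forebrain and cerebellum, 0 of 6 pairs in CON and 1 of 6 in SD passed 0.1. Between liver and kidney 3 of 6 did in each condition (0.043 to 0.21 in CON, -0.064 to 0.40 in SD). A pairing of tissues by animal was left undecided.

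Depth limits the members under 1 CPM, and a single time rests on 2 libraries for each condition.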
